A study of Mus musculus with 18 samples.

Results

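The 10 genes Dnah6, Tnc, Kcnj16, Plek, Tm4sf4, Atp2b2, Slc4a8, Tmem151a, Klhl13 and Ildr1 were followed through 6 groups of sorted crypt cells. They were picked from the 43346 genes of the count table because their counts differed between border and centre libraries of the small intestine (SI), with 9 of them higher and Klhl13 lower at the border. The values of that comparison chose the genes and are given below as a description, without a test. All 10 were among the 26717 genes with a mean count above 0, the genes that were tested.

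RNA was sequenced in bulk from EPCAM+ cells that had been sorted by their own GFP signal from crypts of the SI and the large intestine (LI). GFP-high cells stood for the centre of the crypt base, GFP-medium cells for the border of the Lgr5+ zone and GFP-low cells for positions above row 3 (row >3). Each of the 3 GFP levels at the 2 sites gave 3 libraries, 18 in all, and the comparison of border with centre asks whether Lgr5+ cells at these positions differ in their transcripts. All groups came from untreated C57BL/6 mice aged 8 to 20 weeks with the genotype that the labels spell Lgr5_eGFP_Iris_creERT2, an allele that places GFP and a tamoxifen-inducible Cre recombinase under the Lgr5 locus. This allele is known to be active in only part of the crypts, and GFP brightness stands in for the position of a cell, which was not itself recorded. The study describes the 3 libraries of a group as biological replicates, and the labels number them but do not say which animal each came from.

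Crypt base columnar cells express the Wnt target Lgr5 and give rise to all lineages of the intestinal epithelium. As their daughters leave the crypt base they lose Lgr5 and pass through proliferating progenitors to absorptive, goblet, enteroendocrine or tuft cells, whose ion transporters, junction proteins and secreted products differ. The 10 genes belong to no common pathway. They encode a potassium channel, a calcium pump and a bicarbonate transporter (Kcnj16, Atp2b2 and Slc4a8), membrane and junction proteins (Tm4sf4, Ildr1 and Tmem151a), an extracellular matrix protein (Tnc), a motor protein of cilia (Dnah6), a signalling protein of blood cells (Plek) and a substrate adaptor of a ubiquitin ligase (Klhl13).

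The gene counts of a library summed to 8312093 to 31940965 reads, and the lowest sum was that of SI border replicate 1. The mean normalised count of Lgr5 was 3959, 1265 and 159 in SI centre, border and row >3 cells and 2359, 1451 and 287 in the LI, in the order of the sort, while that of Epcam lay between 15866 and 21120 in all groups. The SI libraries of replicate 3 stood apart from the other SI libraries. Of 27 genes with a CPM (count relative to the scaled size of the library) of 20 or more in every LI library and a mean at least 20 times that of SI replicates 1 and 2, the median level in SI replicate 3 was 62.4%, 87.5% and 86.1% of the LI level in centre, border and row >3 cells, against 0.428% to 1.15% in replicates 1 and 2. That rule itself made these genes low in replicates 1 and 2. The reverse rule, with SI replicates 1 and 2 at 20 CPM or more and at least 20 times the LI mean, gave 29 genes. In SI replicate 3 these 29 were at 28.7%, 14% and 17% of their level in replicates 1 and 2, in the same order of groups. Values and calls of the 10 genes that rest on SI replicate 3 are therefore given with and without its 3 SI libraries. Shares of all genes without overlap are higher without them. Comparing fewer libraries can only keep or add such genes, and the libraries left out also stood apart. The part of each was not tested. Replicate 2 also differed from replicates 1 and 3 in the Y-linked gene Ddx3y, with 599 to 1419 counts in its libraries against at most 1 in the others.

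To show the start of the genes on which the comparison of SI with LI turned, the 120 bases upstream of the RefSeq start site (GRCm38.p6) are given for Tm4sf4 (chr3:57425290-57425409, plus strand), Kcnj16 (chr11:110967913-110968032, plus strand), Atp2b2 (chr6:114042081-114042200, minus strand) and Dnah6 (chr6:73221632-73221751, minus strand). The sequences of Tnc (chr4:64047016-64047135, minus strand), Klhl13 (chrX:23365083-23365202, minus strand) and Ildr1 (chr16:36693858-36693977, plus strand) stand beside them as genes with other patterns. Each is written 5′ to 3′ on the strand of the gene, and capitals mark a match to 1 of 11 motifs on either strand.
Tm4sf4: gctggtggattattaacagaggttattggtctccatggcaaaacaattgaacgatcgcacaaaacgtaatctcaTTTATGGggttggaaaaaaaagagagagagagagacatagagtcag
Kcnj16: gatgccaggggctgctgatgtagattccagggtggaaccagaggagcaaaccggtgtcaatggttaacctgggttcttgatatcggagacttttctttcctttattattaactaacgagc
Atp2b2: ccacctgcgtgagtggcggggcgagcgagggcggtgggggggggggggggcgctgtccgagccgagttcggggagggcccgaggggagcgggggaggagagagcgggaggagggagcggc
Dnah6: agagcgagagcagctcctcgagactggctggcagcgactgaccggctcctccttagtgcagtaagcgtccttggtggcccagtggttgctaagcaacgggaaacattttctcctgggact
Tnc: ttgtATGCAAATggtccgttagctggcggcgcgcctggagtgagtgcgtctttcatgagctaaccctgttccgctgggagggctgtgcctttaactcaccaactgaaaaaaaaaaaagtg
Klhl13: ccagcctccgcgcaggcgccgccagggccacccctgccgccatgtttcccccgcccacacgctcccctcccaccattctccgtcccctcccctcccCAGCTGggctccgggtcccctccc
Ildr1: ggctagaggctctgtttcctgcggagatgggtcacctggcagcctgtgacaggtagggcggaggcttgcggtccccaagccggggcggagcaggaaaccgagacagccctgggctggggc

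Both strands of the 250 bases before the start of all 10 genes were searched for words bound by general and intestinal factors. The word of the core promoter box was TATAAA, and the word bound by the intestinal CDX factors was written as TTTATNG. The word for GATA zinc finger factors was AGATAA, and that for HNF4 in the gut and liver was CAAAGTCCA. The Wnt effectors TCF and LEF were searched for as CTTTGAT, and POU factors, among them that of tuft cells, by their octamer ATGCAAAT. The E-boxes of basic helix-loop-helix factors were searched for in one form as CAGATG and in the other form as CAGCTG. KLF and SP factors were searched for as GGGGCGGGG, and HNF1 and RFX by longer words. The CDX word stood 46 bases before the start of Tm4sf4, 197 before that of Plek and 127 before that of Tnc, where it overlapped a TATAAA at 126, and it is held by 9.81% of the 32851 windows of all genes. Tnc had the octamer at 116 bases, which 1.6% of all windows hold. CAGCTG stood 149 bases before the start of Kcnj16, 221 before Slc4a8 and 24 before Klhl13, against 13% of all windows, and GGGGCGGGG 74 before Tmem151a, against 10.4%. TATAAA is held by 12.4% of all windows. The words of GATA, HNF4, HNF1, TCF/LEF, RFX and the CAGATG box were in none of the 10 windows, against 9.99%, 0.384%, 0.00913%, 3.21%, 0.469% and 14.4% of all windows. No word searched occurred in the windows of Dnah6, Atp2b2 and Ildr1, which says only that these letters are absent there. Sites of the same factors in other spellings may be present. The printed Dnah6 sequence holds the inverted repeat gttgctaagcaac, which no searched word covers. A match is a description of the sequence, not a site. No motif was held by all genes that were higher at the SI border, and their GC content over the 250 bases ranged from 38% in Plek to 76.8% in Tmem151a, on either side of the median of 52.4% of all windows. The RefSeq start used for Plek lies 43663 bases from the 5′ end of the gene in the GENCODE annotation, so its window may not be the one in use.

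The ion channel, pump and transporter genes were low in SI centre cells and higher in every SI border library. Kcnj16 encodes the inwardly rectifying potassium channel subunit Kir5.1 (chr11:110968033-111027968). Its normalised counts in replicates 1, 2 and 3 were 0, 0 and 5.6 in SI centre, 116, 60.9 and 103 in SI border and 52.7, 53.7 and 7.81 in SI row >3 cells. The 3 SI groups did not overlap, with border highest, and no read of Kcnj16 was counted in any of the 9 LI libraries. Atp2b2 encodes PMCA2, a pump that exports calcium across the plasma membrane (chr6:113743831-114042613). It had 4.05, 0 and 15.9 normalised counts in SI centre, 439, 102 and 69.4 in SI border and 85.5, 141 and 45.3 in SI row >3 cells. SI border and row >3 libraries overlapped and all lay above the centre, whereas the LI held 2, 1 and 0 reads in total in centre, border and row >3 cells.

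Slc4a8, a sodium-driven chloride and bicarbonate exchanger (chr15:100761747-100823968), differed from these 2 genes in that it was present in every library of both sites. It had 34.0, 22.1 and 23.3 normalised counts in SI centre, 423, 54.4 and 158 in SI border and 146, 104 and 43.7 in SI row >3 cells. Every SI border and SI row >3 library was above every SI centre library. In the LI the values were 57.6, 59.8 and 32.7 in centre, 105.5, 46.2 and 29.8 in border and 104.8, 69.1 and 29.2 in row >3 cells. The 3 LI groups overlapped, and replicate 3 was the lowest in each of them.

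Among the membrane proteins, Tm4sf4, a member of the L6 family with 4 transmembrane segments (chr3:57425314-57441677), had the highest level per kilobase of exon among the 8 genes with non-overlapping higher values at the SI border. Its normalised counts were 43.8, 77.4 and 155 in SI centre, 864, 280.0 and 518 in SI border and 780.4, 513 and 229 in SI row >3 cells. Border and row >3 cells overlapped in the SI, and both lay above the centre in all libraries. In the LI it had 14.1, 26.2 and 11.5 in centre, 6.42, 17.5 and 4.47 in border and 1.82, 11.4 and 6.60 in row >3 cells, below every SI library. The order within the LI was opposite to that in the SI, with each border and each row >3 library below the centre library of the same number.

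Ildr1 encodes angulin-2, a protein of tricellular junctions, where 3 epithelial cells meet (chr16:36693978-36726804). It was at 169, 164 and 829 normalised counts in SI centre, 465, 332 and 2050.3 in SI border and 455, 524 and 2441 in SI row >3 cells. Replicate 3 was the highest library in each SI group, so that the SI groups overlapped, but within each replicate number border exceeded centre, by 2.75-fold, 2.02-fold and 2.47-fold. In the LI it was at 1279, 1169 and 1294 in centre, 1490.3, 1486 and 1608 in border and 2163, 1778 and 2027 in row >3 cells. The 3 LI groups did not overlap and stood in the order centre, border and row >3. SI replicate 3 was thus above the LI libraries of the same GFP level in border and row >3 cells, while SI replicates 1 and 2 lay below every LI library.

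Tmem151a, a transmembrane protein of little known function (chr19:5070859-5085531), had no read in any SI centre library. It was at 82.6, 1.30 and 29.5 normalised counts in SI border and 3.42, 15 and 9.37 in SI row >3 cells. SI border replicate 2 thus held a level near that of 1 read. In the LI it was at 0, 2.92 and 4.09 in centre, 43.1, 8.73 and 2.98 in border and 0.911, 3.04 and 2.83 in row >3 cells, with border replicate 1 far above the rest.

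Tnc encodes tenascin-C, an extracellular matrix glycoprotein (chr4:63959785-64047015). It had 0, 2.76 and 1.87 normalised counts in SI centre, 172, 44.1 and 65.2 in SI border and 23.3, 13.4 and 0 in SI row >3 cells. SI border libraries lay above all other libraries of both sites. In the LI its values ranged from 0 to 8.20 and all 3 groups overlapped.

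Dnah6 encodes a heavy chain of the inner dynein arms that bend motile cilia (chr6:73017606-73221651). It was at 0, 1.84 and 19.6 normalised counts in SI centre, 288, 44.1 and 190.4 in SI border and 56.8, 54.5 and 17.2 in SI row >3 cells. In replicates 1 and 2 row >3 cells exceeded centre cells, whereas in replicate 3 they were below, at 0.877-fold of the centre. No LI library exceeded 3.80.

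Plek encodes pleckstrin, a substrate of protein kinase C in platelets and leukocytes (chr11:16971206-17052381). It was at 4.86, 0 and 2.80 normalised counts in SI centre, 184, 25.9 and 88.4 in SI border and 73.2, 38.7 and 15.6 in SI row >3 cells. The LI had 2.35, 4.37 and 18.8 in centre, 3.67, 13.7 and 23.1 in border and 11.8, 10.6 and 17.9 in row >3 cells. All 3 LI groups overlapped, and they overlapped SI row >3 cells through SI replicate 3. The summed level of 8 immune genes ranged from 90.0 to 599 CPM in SI centre, 88.7 to 498 CPM in SI border and 75.9 to 390 CPM in SI row >3 cells, and from 7.24 to 38.9 CPM in the LI. This sum was carried by Cd74, with mean normalised counts of 8331, 5613 and 4316 in SI centre, border and row >3 cells. The leukocyte gene Ptprc had 107, 383 and 136 and Itgam 291, 449 and 911, and the median log2 fold change of the 8 immune genes was 1.04 for SI border over centre. That median lay between Coro1a (0.99) and Lyz2 (1.10), which had few reads. Coro1a, Lyz2, Cd3e, Cd8a and Cd52 had means of at most 8.66 normalised counts in SI centre and border cells. The part of immune cells in the values of Plek was not tested.

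Klhl13, which recruits substrates to the Cul3 ubiquitin ligase and acts in cell division (chrX:23219271-23365082), was the only one of the 10 genes with lower values at the SI border. It was at 65.6, 60.8 and 15.9 normalised counts in SI centre, 2.36, 5.18 and 0 in SI border and 2.74, 4.74 and 14 in SI row >3 cells. All SI centre libraries lay above those of both other groups, although in replicate 3 row >3 cells were at 0.886-fold of the centre. The LI did not show this order, with 0, 15.3 and 31.9 in centre, 28.4, 12.5 and 47.6 in border and 2.73, 16.7 and 16 in row >3 cells.

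**Figure D1:**
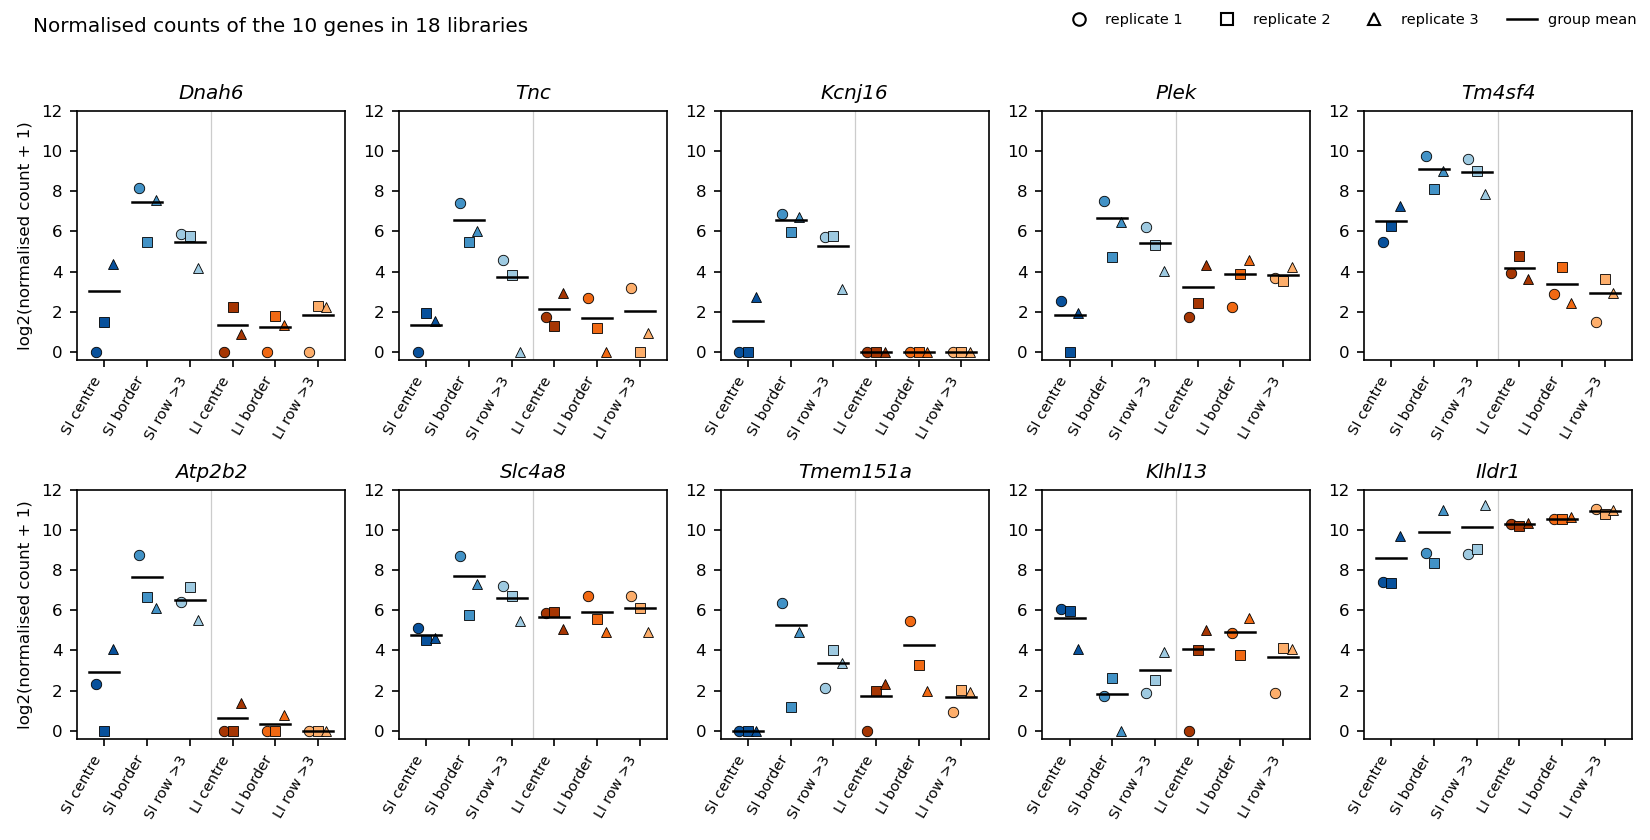
Normalised counts of each gene on a log2(value + 1) scale in the 18 libraries, by group on the x axis. Symbols give the replicate number and lines the log2(mean + 1) of a group. Kcnj16 and Atp2b2 lie at or near 0 in the LI, Klhl13 is lowest at the SI border, and Ildr1 is highest in the LI and in SI replicate 3.

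In the comparison that chose the genes, 8 of 10 did not overlap between SI border and centre with higher values at the border, where 4.15% of all genes did so, and Klhl13 did not overlap with lower values, where 4.6% did. Ildr1 overlapped, but without SI replicate 3 it was the ninth gene with higher values, against 15.5% of all genes, and Klhl13 was lower, against 16.8%. The log2 fold changes of border over centre with their standard errors (SE) from edgeR were 5.75 (SE 0.92) for Tnc, 5.59 (SE 0.95) for Kcnj16, 5.05 (SE 0.90) for Plek and 4.81 (SE 0.86) for Atp2b2. They were 4.58 (SE 0.71) for Dnah6, 2.88 (SE 0.66) for Slc4a8, 2.56 (SE 0.50) for Tm4sf4, 1.32 (SE 0.83) for Ildr1 and -4.28 (SE 1.11) for Klhl13. Tmem151a, with no read at the centre, was at least 42.7-fold higher at the border, taking 3 reads over the group as the limit that a count of 0 allows, a limit for counting error only. Without the SI replicate 3 libraries the values were larger for Dnah6 (7.17, SE 1.07), Atp2b2 (6.73, SE 0.98) and Tm4sf4 (3.16, SE 0.47), while those of Tnc (6.04), Plek (5.0), Slc4a8 (2.85), Klhl13 (-3.91) and Ildr1 (1.2) moved by less, and Kcnj16 then had no read at the centre. For Ildr1 the SE went from 0.83 to 0.21 when these libraries were left out. Without SI border replicate 1 alone, Atp2b2 was at 3.70 and Slc4a8 at 2.03, and the lower limit of Tmem151a was 17.4-fold. With any 1 library left out, Tnc ranged from 5.13 to 6.44 and Plek from 4.43 to 5.92. Klhl13, with 5 reads over the SI border group, was at -5.81 without SI border replicate 2 alone, and Ildr1 was at -0.01 without SI border replicate 3 alone and at 2.51 without SI centre replicate 3 alone. In these bulk samples, fewer cells of a type and less RNA per cell cannot be told apart.

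From border to row >3 cells in the SI, Tnc and Kcnj16 were lower without overlap, and the log2 fold change of row >3 over border was -2.56 (SE 0.63) for Tnc and -1.13 (SE 0.58) for Kcnj16. Over all genes, 5.11% were lower and 7.74% higher without overlap in this comparison, the latter including none of the 10. Without SI replicate 3 the same 2 genes were lower without overlap and none was higher, where 17.1% and 22.4% of all genes were. The log2 fold change was -1.87 (SE 0.55) for Dnah6 and -1.81 (SE 0.85) for Tmem151a, or -0.88 for Tmem151a without SI border replicate 1, although in replicate 2 both genes were higher in row >3 than in border cells. It was -1.0, -0.99 and -0.95 for Plek, Atp2b2 and Slc4a8. For Plek, Atp2b2 and Slc4a8 the value rested on SI border replicate 1, without which it was -0.37, 0.12 and -0.10, and in replicate 2 row >3 cells exceeded border cells, by 1.49-fold, 1.37-fold and 1.92-fold. Tm4sf4 had nearly the same mean in both groups, at -0.08 (SE 0.45), and Ildr1 and Klhl13 were at 0.23 (SE 0.81) and 1.27 (SE 1.62). Without the SI replicate 3 libraries the values were -2.31 for Tnc, -0.60 for Kcnj16, -1.33 for Dnah6, 0.28 for Tm4sf4, 0.36 for Ildr1 and -0.15 for Klhl13, so that the direction of Tm4sf4 and Klhl13 turned. Leaving out 1 library turned Ildr1 too, at -0.95 without SI row >3 replicate 3 and 1.56 without SI border replicate 3, and Klhl13 was at 2.79 without SI border replicate 2. Against the centre, SI row >3 cells were still higher without overlap for 6 genes, Kcnj16, Plek, Tm4sf4, Atp2b2, Slc4a8 and Tmem151a, and lower for Klhl13, where 12.8% and 12.1% of all genes were. Without SI replicate 3, Dnah6, Tnc and Ildr1 were also higher without overlap, 9 genes in all, where 24.7% of all genes were, and Klhl13 was lower, where 23.3% were. The log2 fold change of row >3 over centre was 2.72 for Dnah6 with all libraries and 5.84 without SI replicate 3, 3.19 and 3.74 for Tnc, 4.06 and 4.40 for Plek and 2.48 and 3.44 for Tm4sf4. It was 3.82 and 5.63 for Atp2b2, 1.93 and 2.15 for Slc4a8, 1.55 and 1.56 for Ildr1 and -3.01 and -4.06 for Klhl13. With 1 library left out, that of Ildr1 ranged from 0.35 to 2.76. Kcnj16 was at 4.46 with all libraries, and Tmem151a was at least 10.5-fold higher. These 2 comparisons share libraries with the one that chose the genes, and no test is given for them.

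The SI row >3 and LI libraries took no part in choosing the genes, and comparisons among them were tested in edgeR by quasi-likelihood, with p-values adjusted over all genes by the method of Benjamini and Hochberg. In row >3 cells, 4 of the 10 genes were higher in SI than in LI, and 2.76% of all genes were called in that direction. A gene chosen for a difference between SI libraries must have reads in the SI, and Kcnj16 passed the filter through SI libraries alone. Counts of the 10 genes that differ between the sites are therefore partly set by the choice. No excess over the shares of all genes is read from them. Tm4sf4 was higher by a log2 fold change of 6.14 (SE 0.67, adjusted p = 1.83e-05), with 508 ± 275 normalised counts in the SI against 6.60 ± 4.78 in the LI (SD, n = 3). Atp2b2 and Kcnj16, without a read in LI row >3 cells, were at least 105-fold and at least 44.1-fold higher by the limit of 3 reads (adjusted p = 0.00301 and 0.00528). Dnah6 was higher by 4.02 (SE 0.93, adjusted p = 0.00876). The libraries of these 4 genes and of Tmem151a did not overlap, 5 of 10 genes, where 10.2% of all genes were higher without overlap. None of the 10 was lower without overlap, where 7.34% were. Without SI replicate 3, Tnc and Plek also did not overlap with higher values, 7 genes against 19.3% of all genes, and Ildr1 did not overlap with lower values, against 13.8%.

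The other genes did not pass the test between SI and LI row >3 cells. The log2 fold change was 2.22 for Tnc (SE 1.03, adjusted p = 0.275), from 1.48 without SI row >3 replicate 1 to 4.69 without LI row >3 replicate 1, 1.72 for Plek (SE 0.70, adjusted p = 0.206), 1.85 for Tmem151a (SE 1.28, adjusted p = 0.563) and 0.53 for Slc4a8 (SE 0.59, adjusted p = 0.800). Klhl13 was at -1.10 (SE 1.01, adjusted p = 0.724). With 1 library left out, Plek ranged from 1.09 to 2.03, Tmem151a from 1.12 to 2.38 and Klhl13 from -1.73 to -0.62. Ildr1 was at -0.86 (SE 0.81, adjusted p = 0.739), with 1140.2 ± 1127 in the SI against 1989 ± 195 in the LI. Without the SI replicate 3 libraries, the log2 fold change of Ildr1 was -2.03 (SE 0.17, adjusted p = 8.59e-09), so that its call depended on these libraries. Without them, 6.8% of all genes were called higher and 5.36% lower. The 4 genes called with all libraries were called without them too, at 6.52 for Tm4sf4 (adjusted p = 1.29e-08) and 4.36 for Dnah6 (adjusted p = 3.33e-04), and with adjusted p = 7.72e-05 for Atp2b2 and 1.80e-04 for Kcnj16. Dnah6 lost its call when SI row >3 replicate 1 or LI row >3 replicate 2 was left out (adjusted p = 0.0625 and 0.0534). The SI row >3 libraries carry the replicate numbers of the SI libraries that chose the genes, and libraries of 1 number deviated from their group means together within the SI.

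**Figure D2:**
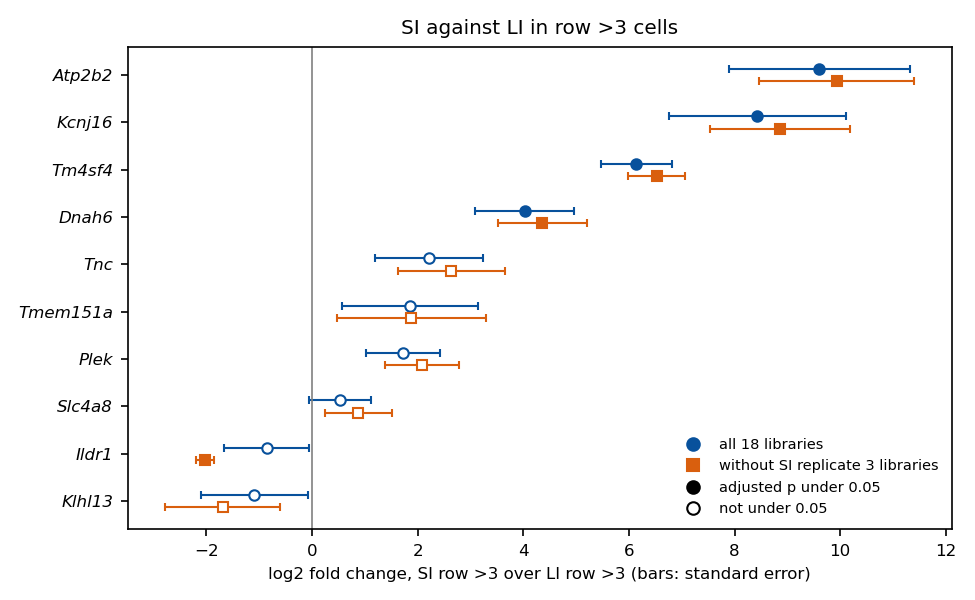
Log2 fold change of SI over LI row >3 cells for each gene with its standard error, from all 18 libraries (circles) and without the SI replicate 3 libraries (squares). Filled symbols mark an adjusted p under 0.05. The values of Atp2b2 and Kcnj16 are fitted against LI groups without a read and are not bounds. Ildr1 moves from -0.86 to -2.03.

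The direct comparison of SI with LI at the border and at the centre uses the libraries that chose the genes and is given as values. At the border, Dnah6, Tnc, Kcnj16, Plek, Tm4sf4 and Atp2b2 were higher in SI than in LI without overlap, where 7.34% of all genes were, and Klhl13 was lower, where 7.62% were. SI exceeded LI by a log2 fold change of 6.89 (SE 0.95) for Dnah6, 5.91 (SE 0.67) for Tm4sf4, 5.18 (SE 0.88) for Tnc, 2.64 (SE 0.69) for Plek, and the value of Klhl13 was -3.73 (SE 1.18). Kcnj16 was at least 101-fold higher. Without the SI replicate 3 libraries these values were 6.69 for Dnah6, 5.96 for Tm4sf4, 5.34 for Tnc, 2.59 for Plek and -2.94 for Klhl13, and Kcnj16 was at least 95.2-fold higher. Atp2b2, with 1 read in LI border cells, was at 8.72 (SE 1.35) and at 9.15 without SI replicate 3. Leaving out any 1 library gave 4.47 to 7.13 for Tnc, 2.02 to 3.46 for Plek, -5.25 to -2.96 for Klhl13 and 7.62 to 10.58 for Atp2b2. Without SI replicate 3 the same 6 genes were higher without overlap, against 15.9% of all genes, and Ildr1 joined Klhl13 as lower, against 15.3%. Ildr1 was at -0.71 (SE 0.81) with these libraries and at -2.01 (SE 0.19) without them. In centre cells Tm4sf4 alone was higher without overlap, where 9.59% of all genes were. Its log2 fold change was 2.30 (SE 0.61), or 1.71 to 2.81 with 1 library left out. Ildr1 was lower without overlap, where 8.65% of all genes were, at -1.74 (SE 0.83), or -2.92 (SE 0.19) without SI replicate 3. Without these libraries Klhl13 was higher without overlap as well as Tm4sf4, against 17.7% of all genes, and Ildr1 was lower, against 15.7%. Tmem151a, with a mean of 37.8 ± 41.3 at the SI border and 18.3 ± 21.7 at the LI border (SD, n = 3), overlapped between the sites.

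The shift from centre to border was then followed in the LI. None of the 10 genes and none of all genes tested passed edgeR's test there (0% called), nor did any with DESeq2, and 368 genes (1.38%) had an unadjusted p under 0.05. Tmem151a was the only one of the 10 among these, with a log2 fold change of 2.74 (SE 1.10, adjusted p = 1). It was at 2.34 ± 2.11 in LI centre, from 9 reads over the group, and 18.3 ± 21.7 in LI border cells (SD, n = 3), and without LI border replicate 1 its log2 fold change was 0.99. Ildr1 was the only one whose LI libraries did not overlap, with higher values at the border, where 2.89% of all genes were, and its log2 fold change was 0.29 (SE 0.80). None was lower without overlap, where 2.71% were. The remaining genes had log2 fold changes of 0.87 for Klhl13, 0.64 for Plek, 0.26 for Slc4a8 and -1.05 for Tm4sf4 with adjusted p = 1 by edgeR for each. Kcnj16 and Atp2b2 had 3 reads or fewer in the LI groups, Dnah6 4 to 9 and Tnc 7 to 12, so that a lower level or a small shift of these genes within the LI was not detectable at this depth. In the SI border libraries, 47 to 98 reads of Kcnj16 and 66 to 186 reads of Atp2b2 were counted at depths that included the lowest of all.

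Between LI row >3 and LI centre cells, again none of the 10 genes passed edgeR's test, where 0.0187% of all genes, 5 in number, were called, and DESeq2 called none of the 10 either. No member had an unadjusted p under 0.05, against 6.96% of all genes. Ildr1 was higher in row >3 cells without overlap, where 7.57% of all genes were, with 1989 ± 195 against 1247 ± 68.0 (SD, n = 3) and a log2 fold change of 0.68 (SE 0.80, edgeR adjusted p = 0.969). The spread behind this SE was estimated for the gene over all 6 groups. When replicate numbers were blocked within each site the adjusted p of Ildr1 was 0.00382, without the SI replicate 3 libraries it was 0.0144 and in a fit of these 2 groups alone 0.0467, at log2 fold changes of 0.68, 0.67 and 0.67. Tm4sf4 was lower in row >3 cells without overlap, where 7.18% of all genes were, with 6.60 ± 4.78 against 17.3 ± 7.88 and a log2 fold change of -1.36 (SE 0.88, adjusted p = 0.871).

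**Figure D3:**
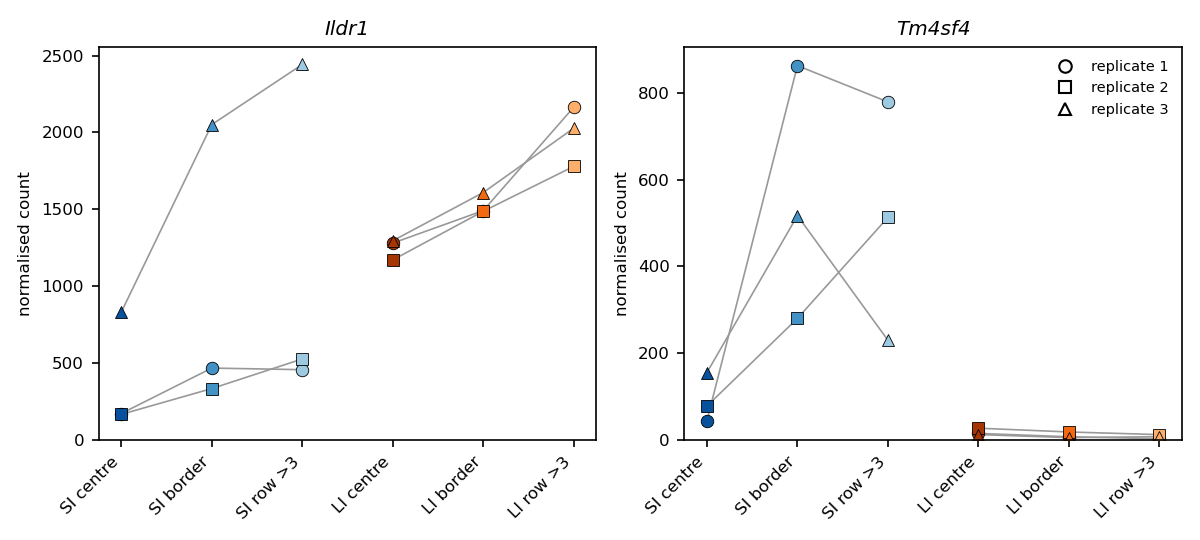
Normalised counts of Ildr1 (left) and Tm4sf4 (right) by group, with lines joining libraries of the same replicate number within a site. Ildr1 is higher at the border than at the centre for each number in both sites, and Tm4sf4 is higher at the border in the SI and lower in the LI.

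Compared per kilobase of exon, the genes differed widely in level. At the SI border the mean normalised count per kilobase was 370.3 for Tm4sf4 and 221 for Ildr1, then 23.7 for Kcnj16, 22.2 for Plek, 16.3 for Slc4a8, 16.1 for Atp2b2, 13.1 for Dnah6, 12.1 for Tnc and 7.86 for Tmem151a, with Klhl13 at 0.591. In LI row >3 cells Ildr1 was at 463 per kilobase and none of the other genes exceeded 5.20, the value of Slc4a8. The group means stood in the order SI border, SI row >3 and SI centre above all LI groups for Dnah6, Kcnj16, Tm4sf4 and Atp2b2. Of the neighbours in that order, SI border and SI row >3 did not overlap for Kcnj16, SI row >3 and SI centre did not overlap for Kcnj16, Tm4sf4 and Atp2b2, and SI centre and LI centre did not overlap for Tm4sf4. For Slc4a8, Plek, Tnc, Tmem151a and Ildr1 the SI centre was the lowest of the 6 groups.

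Relatives of the 10 genes from the same families were tested in the same fit, where 2.76% of all genes were called higher in SI than in LI row >3 cells and 1.32% lower. In SI against LI row >3 cells, 1 of 17 tested axonemal dynein and cilium genes was higher, Dnah8 at 0.94 (SE 0.25, edgeR adjusted p = 0.0329). Foxj1, the master regulator of motile cilia, had 3.40 normalised counts in SI and 0.304 in LI row >3 cells. Of 9 inward rectifiers Kcnj2 was higher, at 3.89 (SE 0.69, adjusted p = 0.00155). Of 9 SLC4 transporters Slc4a5 was higher, at 2.85 (SE 0.42, adjusted p = 2.52e-04). Of 4 L6 family genes Tm4sf5 was higher, at 4.42 (SE 0.58, adjusted p = 8.60e-05). In these 3 families no member was called lower, and the medians of the log2 fold changes were 3.44, -0.07 and -2.09, against 0 over all genes. These medians include genes with hardly a read, such as Kcnj15 (mean 0.0302 CPM), Tm4sf1 (0.147 CPM) and Tm4sf19 (0.0127 CPM). They are not read as the shift of a family.

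Prkca, a kinase of the family that phosphorylates pleckstrin, was higher in SI row >3 cells, at 0.53 (SE 0.15, edgeR adjusted p = 0.0382), 1 of 5 relatives and partners of Plek. Sdc4, a syndecan that binds matrix proteins, was lower, at -0.59 (SE 0.14, adjusted p = 0.0158), 1 of 12 tenascins and their receptors. None of 12 calcium pump, entry and store genes was called, and Atp2a3, the calcium pump of the endoplasmic reticulum with the highest level among them, was at 20624 and 14911 normalised counts in SI and LI. None of 5 angulin and tricellular junction genes was called, with Lsr, or angulin-1, at 4586 and 2995. None of 6 partners of Klhl13 was called, with Cul3 at 2173 and 2373. In the LI comparisons of border or row >3 with centre, no gene of these families was called. Without SI replicate 3, Dnah8, Kcnj2, Slc4a5, Tm4sf5, Prkca and Sdc4 were called in the same direction, and Dnah7a, Itga9, Atp2a2, Itpr2, Itpr3, Lsr and Marveld3 were called higher and Dnah11, Slc4a4 and Slc4a7 lower.

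Markers of other cell types also differed between the libraries. The summed level of 13 tuft cell markers, none at 0 in all libraries, was 46.3, 53.0 and 650.4 CPM in SI centre replicates 1, 2 and 3, 1382, 436 and 664 CPM in SI border and 525, 556 and 153 CPM in SI row >3 libraries. Among the SI border libraries the tuft sum was highest in replicate 1, as were all 8 genes with non-overlapping higher values. Within SI replicate 3 the tuft sum was 650.4 CPM in centre and 664 CPM in border cells. These libraries took part in choosing the genes. The 8 genes are defined by higher values in every SI border library, so that they were higher in this one by definition. In the LI the tuft sum ranged from 250 to 363 CPM in centre, 366 to 519 CPM in border and 211 to 243 CPM in row >3 cells. The summed absorptive markers (12 genes) ranged from 478 to 713 CPM in SI centre, 716 to 2907 CPM in SI border and 1349 to 4085 CPM in SI row >3 libraries, without overlap between centre and border, and from 585 to 2095 CPM in the LI. The highest value in SI border and row >3 cells was that of replicate 3, in which the colonic gene Car1 held 1140 and 1939 CPM of the sum, and without Car1 the SI ranges were 477 to 662.5, 715 to 1766 and 1339 to 2878 CPM. The median log2 fold change of SI border over centre was 1.87 for the absorptive and 1.86 for the tuft markers. The summed goblet markers (7 genes) ranged from 674 to 10030.3 CPM in SI centre, 4117 to 13181 CPM in SI border and 31084 to 50710.2 CPM in SI row >3 libraries. In the LI the goblet sum was 6733 to 10690 CPM in centre and 8908 to 13400 CPM in border libraries. It was 14917 to 23459 CPM in LI row >3 libraries, above both. Enteroendocrine markers (16 genes) ranged from 32.3 to 304 CPM in SI centre, 65.2 to 349 CPM in SI border and 106 to 642 CPM in SI row >3 libraries. The stromal markers (8 genes) summed to 0.505 to 1.25 CPM in SI centre, 2.95 to 9.88 CPM in SI border, 4.74 to 7.80 CPM in SI row >3 and 0.365 to 18.3 CPM in LI libraries, so that SI centre did not overlap the other SI groups. In the SI this sum lay in Vim, with mean normalised counts of 5.22, 75.6 and 90.7 in centre, border and row >3 cells, and Pecam1, with 4.36, 36.3 and 38.9, while the fibroblast genes Col1a1, Col1a2, Col3a1, Dcn and Pdgfra had at most 5.06. The part of these cell types in the values of the 10 genes was not tested.

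Between SI and LI row >3 cells, 7 of 12 absorptive markers were called higher in the SI by edgeR, among them Fabp1 (6.13, SE 0.75, adjusted p = 3.05e-05), with 4 of 6 Paneth, 2 of 16 enteroendocrine and 2 of 8 immune markers. None of 13 tuft, 7 goblet and 8 stromal markers was called, with the tuft gene Dclk1 at 0.50 (SE 0.95, adjusted p = 0.889). Of the 8 crypt base markers Olfm4 was called higher (12.45, SE 2.53, adjusted p = 0.0142), and of 7 proliferation genes Pcna was called lower (-0.87, SE 0.20, adjusted p = 0.0140). Over all genes, 2.76% were called higher in the SI and 1.32% lower, or 6.8% and 5.36% without SI replicate 3. No marker of any list was called in the LI comparisons. Without SI replicate 3, 8 of 13 tuft markers were called higher in SI than in LI row >3 cells and Gnat3 lower, and 7 absorptive markers were higher and 3 lower. Then 5 of 6 Paneth, 6 of 16 enteroendocrine, 3 of 8 crypt base, 2 of 8 immune and 1 of 8 stromal markers were called higher, and none of 7 goblet markers, while Pcna and the enteroendocrine gene Sct were lower. The part of tuft cells in the differences of the 10 genes between SI and LI was not tested.

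**Figure D4:**
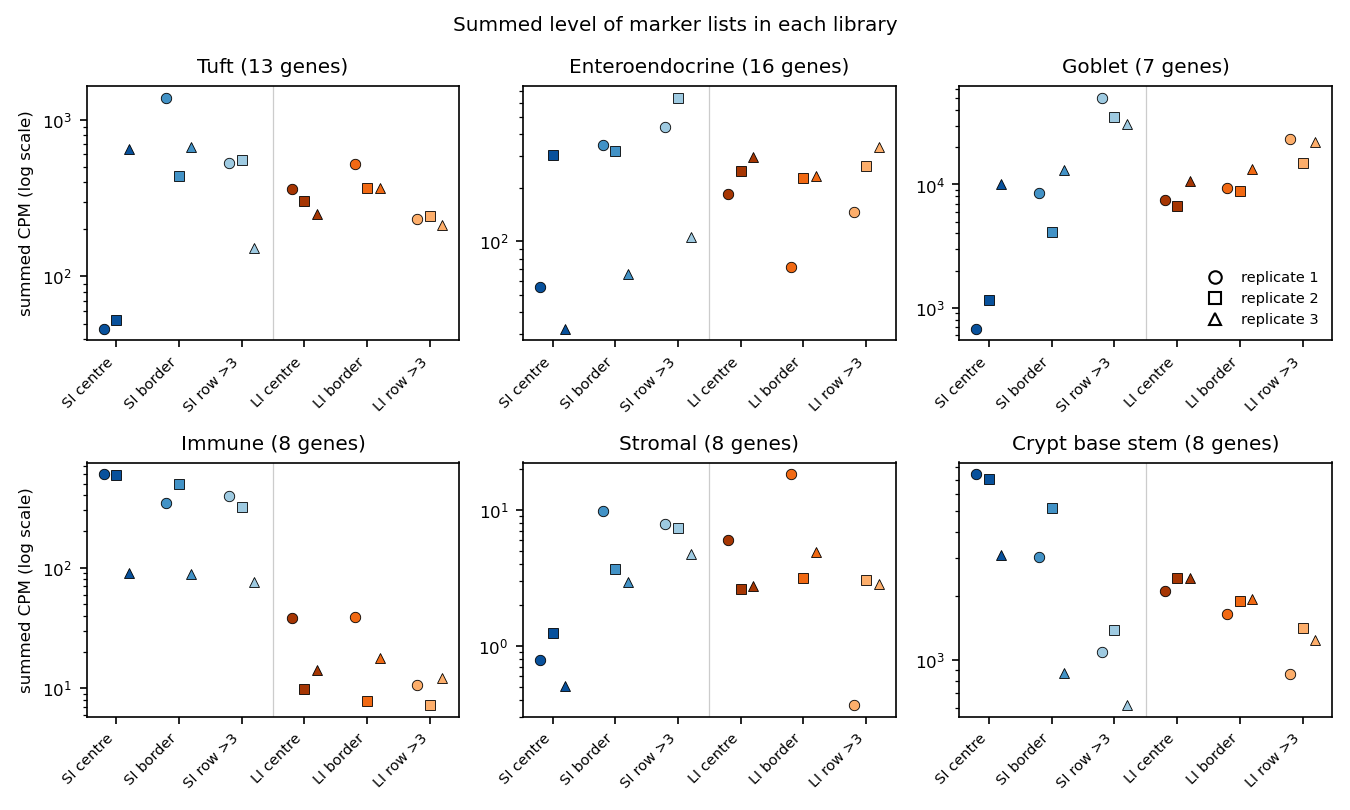
Summed CPM of 6 marker lists in each library on log scales, by group on the x axis, with symbols for the replicate number. The tuft sum is lowest in SI centre replicates 1 and 2, and SI centre replicate 3 lies at 650.4 CPM.

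To describe which genes had the pattern most like each of the 10, log2 CPM was correlated over the 18 libraries, which share site, sort and depth, among 12977 genes with a mean of at least 1 CPM. Atp2b2 and Kcnj16 were most like Basp1 and next like each other, with Pearson's r of 0.98 between Atp2b2 and Basp1 and 0.96 between Kcnj16 and Atp2b2, and Dnah6 was most like Kcnj16 (0.96). Tm4sf4 was most like Bcl2l15 (0.95) and Tnc most like Kctd12 (0.87). Over the 9 LI libraries alone, where these genes had few reads, r was -0.40 between Atp2b2 and Basp1, 0.31 between Tm4sf4 and Bcl2l15 and -0.03 between Tnc and Kctd12, and none is given for Kcnj16, which had no read there. Ildr1 was most like Ank (0.99, and 0.93 in the LI), Slc4a8 like Plcb2 (0.88, and 0.87), Plek like Lap3 (0.86, and 0.90) and Klhl13 like Klhdc2 (0.83, and 0.81). Tmem151a was most like Eml6 (0.76, and 0.67). Plcb2 is on the list of tuft markers, while the remaining genes named here as most alike are on no marker list. Alox5ap, also a tuft marker, was the next most alike for Plek (0.84, and 0.14 in the LI) and for Tmem151a (0.73, and 0.70).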

How the data were processed

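Reads were demultiplexed, trimmed, aligned to mm10 and counted per gene with STAR by the authors, who deposited raw counts and a table of counts divided by 1 size factor per library (signal, in units of normalised counts). Neither the gene annotation release nor whether counting used strand is given in the sources used here. Per-library values are from the deposited normalised table, in which each library differed from the counts by a constant factor to a relative deviation of 5.22e-15. Of the annotated genes that overlap the 10 genes, 7 were in the count table and had group means of at most 0.0978 CPM, and 3, among them Gm20560 with 167 exonic bases opposite Dnah6, were not measured here.

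For tests, edgeR 4.0.16 (R 4.3.3) was run on the deposited counts (TMM factors, mean count above 0, robust quasi-likelihood fit of 6 groups, 12 residual degrees of freedom), and a p adjusted by Benjamini-Hochberg under 0.05 was called. The fit was tested on simulated counts. CPM values used the same factors, and log2 CPM a prior count of 2. Alternatives were DESeq2 1.42.0, RLE factors, library size only, filterByExpr, no filter, a replicate block, only the groups compared, each library left out, the SI replicate 3 libraries left out and, added after seeing the data, the legacy fit, overlaps and list calls without SI replicate 3, lower limits without single libraries and the absorptive sum without Car1. Positions are from GENCODE M21 on GRCm38, where all 10 genes matched by symbol and identifier, and promoters from RefSeq, where all 10 matched by symbol. Figures were drawn with matplotlib 3.10.9. No library was a duplicate of another.

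The tests above used no replicate block, and the block within a site was run as an alternative, since deviations from group means correlated over 11518 genes for each of 9 pairs of libraries with equal numbers in the SI (r from 0.32 to 0.74) and in the LI (0.37 to 0.65). For SI and LI row >3 cells r ranged from -0.05 to 0.28, and no pairing was assumed. The genes, the families and the marker lists were chosen with earlier results of these data known. All 10 genes are named, with the 3 genes of highest correlation for each at most, and of each family or marker list up to 3 called genes or the gene of highest level. Foxj1, Alox5ap beside the most alike genes and single immune, stromal, absorptive and related genes were named after their values were seen.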

Additional observations from a re-analysis of the deposited data

Results flagged for a closer look

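Tm4sf4 stood out because its libraries moved in opposite ways in the SI and the LI. Each SI border library was above the SI centre library of the same number, with a log2 fold change of 2.56, and each LI border library was below its LI centre library, at -1.05. The same held for row >3 against centre cells, with 2.48 (SI) and -1.36 (LI). Whether the sites differ was not tested, since the SI centre libraries took part in choosing the gene, and the LI changes alone did not pass edgeR's test.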

How the results depend on the processing

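Over 26 tested differences of the 10 genes and 406 values under alternative settings, 387 kept their direction and their side of the threshold. Of the 4 genes called between SI and LI row >3 cells, Tm4sf4, Atp2b2 and Kcnj16 were called under every setting run, while Dnah6 was not under the legacy fit (adjusted p = 0.101) or without either of 2 libraries, and the number of the 10 genes called ranged from 3 to 4 when single libraries were left out. The genes were chosen from SI libraries, and Atp2b2 and Kcnj16 had no read in LI row >3 cells. Calls that hold under all settings are thus partly set by the choice. The count of all genes called there, 1092, was 1682 with DESeq2, 1840 with a replicate block over all libraries, 3184 without SI replicate 3 and 379 (without SI row >3 replicate 1) to 1686 (without SI row >3 replicate 3) with 1 library left out. It was 486 without LI row >3 replicate 2 and 547 without LI row >3 replicate 3. A replicate block within each site was not run for SI against LI, which lies between such blocks.

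Between LI row >3 and LI centre cells, the 5 genes called became 82 with DESeq2, 1 with RLE factors, 0 with library size only, 0 with filterByExpr, 1 with no filter, 692 with the replicate block within site, 35 with the block over all libraries, 497 without SI replicate 3, 243 with only the 2 groups compared and 0 to 3 with 1 library left out. Of the 10 genes, 1 (Ildr1) was called with the replicate block within site, without SI replicate 3 and with the 2 groups alone, and the blocks changed no other call of the 10 genes. Between LI border and LI centre cells, 1 gene was called without SI replicate 3 and 0 with 1 library left out. The causes were not tested.

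Leaving out 1 library turned the direction of uncalled differences within the LI. For border against centre the log2 fold change ranged from -0.98 to 1.18 for Dnah6, -2.61 to 0.25 for Tnc, -0.17 to 1.94 for Plek and -0.42 to 0.61 for Slc4a8. For row >3 against centre it ranged from -2.74 to 0.65 for Tnc, -0.58 to 0.35 for Tmem151a and -0.96 to 0.40 for Klhl13. Scaling by library size alone moved the median of all genes by -0.11 between LI row >3 and centre and by -0.16 between SI row >3 and centre cells. Counts of 9 reads or fewer over a group limit Dnah6, Kcnj16 and Atp2b2 in all LI groups, Tmem151a in LI centre and row >3 cells and Tnc in LI border cells. In the SI they limit Tnc (5 reads), Kcnj16 (6), Plek (9) and Tmem151a (0) at the centre and Klhl13 (5) at the border.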
